A study of Mus musculus with 6 samples.

Results

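Deep windows of gene bodies are the 200-bp windows of an ATAC-seq count table whose centre lies inside a protein-coding gene and more than 1 kb from both ends of every protein-coding gene. ATAC-seq uses the transposase Tn5 to cut and tag open DNA, so that the number of reads in a window reflects how accessible it is. The rule used positions only and no measured value, and it took 20734 of the 55056 windows (37.7%), which lay in 8151 host genes. A host held a median of 2 deep windows and at most 39, 3974 hosts held a single one, and 191 windows lay in more than 1 host. Coordinates are those of mm10, and gene positions are those of RefSeq on GRCm38.p6. No division of gene bodies into exons, introns or UTRs was made.

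The libraries came from small intestinal organoids, epithelial cultures that grow from crypt stem cells, of 1 line from 1 female mouse of genotype Lgr5GFPDTR/+, an allele that places a reporter and the diphtheria toxin receptor at Lgr5 and that both groups carried. In the RANKL group (n = 3) organoids spent 6 days with 100 ng/ml RANKL, having first had 3 days of the GSK3 inhibitor CHIR99021 at 3 µM with valproic acid, a histone deacetylase inhibitor, at 1.5 mM and a day in ENR medium. The control group (n = 3) was kept for 6 days in ENR medium, which holds EGF, Noggin and R-spondin. The submitters' names of the control libraries begin with CVENR, which is not explained. Whether the controls had the same pretreatment is not given in the sources used here, so RANKL and the pretreatment cannot be told apart. Replicates were 3 separate differentiation experiments. Windows held 322173 to 976881 counts per library, with 322173, 466521 and 828445 in the RANKL libraries and 920681, 976881 and 455083 in the controls. In bulk samples a change in the mixture of cell types and a change within a cell type cannot be told apart. Marker lists of cell types were read by summing all windows at or in their genes. CPM are counts per 1e6 of a library's counts in tested windows, scaled by edgeR's normalisation factor. The epithelial list (16 windows, all 9 genes) had 680.0 to 730.0 CPM in controls and 732.0 to 799.0 with RANKL. The other lists had 14.2 to 16.7 CPM per window on average, against 45.5 for the epithelial list. The haematopoietic list had 9 windows at 7 of 10 genes, with none at Cd3e or Cd8a among others, and 89.5 to 115.0 CPM in controls and 97.6 to 199.0 with RANKL. The mesenchymal list had 6 windows at 6 of 8 genes (67.9 to 104.0 and 52.9 to 105.0 CPM), and the endothelial list 6 windows at 3 of 6 (90.8 to 124.0 and 51.9 to 85.2 CPM). The neural list had 21 windows at 4 of 6 genes and was higher in every RANKL library (255.0 to 322.0 and 379.0 to 431.0 CPM). Its members did not move together: the deep windows of Syt1 went from a mean of 153.0 to 303.0 CPM, and those of Snap25 from 38.3 to 9.29. RANKL libraries were above all controls for the neural and epithelial lists and below them for the endothelial list. The part of these lists in the results was not tested.

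Open sites inside a gene body can be enhancers of the host or of another gene, or start sites of shorter transcripts. Enhancers tend to be open in few cell types, and promoters of widely used genes in many. RANKL is a TNF family cytokine that binds RANK, encoded by Tnfrsf11a, and activates NF-kB, and in the gut it drives the differentiation of microfold (M) cells over lymphoid follicles.

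Some deep windows sit at an annotated start of their host, and these are the members whose sequence the RefSeq promoter table holds: 949 deep windows had their centre within 250 bp of such a start, 15477 did not, and the hosts of 4308 had no entry. The sequences below are the 3 start windows with the largest rise and the 3 with the largest fall among those called and not overlapping between groups, followed by Nfkb2, chosen after its value was seen because it encodes a subunit of the NF-kB arm that RANK activates. Each runs 5′ to 3′ on the strand of the gene, from 250 bases before the start to 50 from it on, on GRCm38.p6, and capitals mark the part that lies inside the counted window. Acot7 encodes an acyl-CoA thioesterase, Pde1c a cyclic nucleotide phosphodiesterase and Nfe2l1 a transcription factor of proteasome genes. Trim30a encodes a member of the TRIM family, Pla2g4a cytosolic phospholipase A2 and Ncoa7 a nuclear receptor coactivator.
Acot7 (higher, chr4:152185358-152185657, plus strand): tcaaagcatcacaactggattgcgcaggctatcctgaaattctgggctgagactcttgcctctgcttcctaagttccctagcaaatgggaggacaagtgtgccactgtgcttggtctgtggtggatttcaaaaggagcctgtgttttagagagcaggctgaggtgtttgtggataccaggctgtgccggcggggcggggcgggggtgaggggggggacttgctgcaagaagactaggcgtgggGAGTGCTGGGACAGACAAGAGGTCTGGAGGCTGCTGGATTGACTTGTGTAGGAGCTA
Pde1c (higher, chr6:56362343-56362642, minus strand): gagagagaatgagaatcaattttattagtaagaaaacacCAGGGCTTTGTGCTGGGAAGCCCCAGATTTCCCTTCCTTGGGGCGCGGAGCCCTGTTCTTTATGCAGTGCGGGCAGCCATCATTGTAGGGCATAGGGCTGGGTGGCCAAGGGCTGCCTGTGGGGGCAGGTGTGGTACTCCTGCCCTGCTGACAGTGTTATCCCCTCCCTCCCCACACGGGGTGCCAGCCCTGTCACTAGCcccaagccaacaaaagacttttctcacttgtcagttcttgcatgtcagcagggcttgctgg
Nfe2l1 (higher, chr11:96824078-96824377, minus strand): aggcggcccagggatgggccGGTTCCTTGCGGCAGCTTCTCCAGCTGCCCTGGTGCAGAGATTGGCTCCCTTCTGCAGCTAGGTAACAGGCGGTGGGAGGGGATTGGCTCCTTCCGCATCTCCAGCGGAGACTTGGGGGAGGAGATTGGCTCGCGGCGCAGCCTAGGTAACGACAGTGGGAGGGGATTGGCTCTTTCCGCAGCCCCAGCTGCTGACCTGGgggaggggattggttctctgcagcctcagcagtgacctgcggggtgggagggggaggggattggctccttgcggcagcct
Trim30a (lower, chr7:104446076-104446375, minus strand): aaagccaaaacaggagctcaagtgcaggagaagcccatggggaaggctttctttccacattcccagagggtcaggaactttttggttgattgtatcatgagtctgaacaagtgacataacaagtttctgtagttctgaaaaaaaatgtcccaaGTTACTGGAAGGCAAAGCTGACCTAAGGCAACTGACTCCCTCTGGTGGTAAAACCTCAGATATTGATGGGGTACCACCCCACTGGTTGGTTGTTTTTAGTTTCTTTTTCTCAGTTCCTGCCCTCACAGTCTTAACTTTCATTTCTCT
Pla2g4a (lower, chr1:149922390-149922689, minus strand): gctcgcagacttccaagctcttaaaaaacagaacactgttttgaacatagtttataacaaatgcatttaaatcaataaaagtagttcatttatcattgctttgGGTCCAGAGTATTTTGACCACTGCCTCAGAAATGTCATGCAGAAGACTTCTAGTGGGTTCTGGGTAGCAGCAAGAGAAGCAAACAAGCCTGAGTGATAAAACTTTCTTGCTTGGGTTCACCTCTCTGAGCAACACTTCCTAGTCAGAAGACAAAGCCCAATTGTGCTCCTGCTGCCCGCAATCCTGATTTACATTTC
Ncoa7 (lower, chr10:30655818-30656117, minus strand): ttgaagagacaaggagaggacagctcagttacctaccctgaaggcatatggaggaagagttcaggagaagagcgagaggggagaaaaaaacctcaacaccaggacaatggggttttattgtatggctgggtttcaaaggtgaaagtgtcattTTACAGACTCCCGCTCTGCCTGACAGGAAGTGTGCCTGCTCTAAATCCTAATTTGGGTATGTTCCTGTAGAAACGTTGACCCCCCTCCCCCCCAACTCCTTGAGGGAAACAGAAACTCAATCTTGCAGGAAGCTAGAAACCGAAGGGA
Nfkb2 (higher, chr19:46304487-46304786, plus strand): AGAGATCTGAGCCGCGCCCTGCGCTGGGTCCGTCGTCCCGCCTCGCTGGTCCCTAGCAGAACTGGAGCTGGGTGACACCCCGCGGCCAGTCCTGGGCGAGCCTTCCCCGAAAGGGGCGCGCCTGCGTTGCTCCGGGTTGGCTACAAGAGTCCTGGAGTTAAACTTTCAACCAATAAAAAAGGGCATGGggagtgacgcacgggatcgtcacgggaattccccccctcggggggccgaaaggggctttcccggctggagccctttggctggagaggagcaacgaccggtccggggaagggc

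The window at the Acot7 start had 8.6, 7.9 and 11.3 CPM in controls and 40.7, 69.3 and 55.7 with RANKL, a log2 fold change of 2.63 ± 0.43 (SE; edgeR's quasi-likelihood test, adjusted p = 7.481e-08). At the Pde1c start the controls had 7.16, 10.5 and 11.3 CPM and the RANKL libraries 57.0, 49.1 and 60.6 (2.54 ± 0.43, edgeR adjusted p = 1.41e-07). Both windows were low in every control and higher in every RANKL library. They had enough counts for the test only through the RANKL libraries. The Trim30a start went the other way, from 30.1, 34.2 and 36.8 CPM to 4.07, 2.89 and 9.83 (-2.31 ± 0.56, edgeR adjusted p = 0.0005828). At the Pla2g4a start the values were 57.3, 46.1 and 56.6 CPM in controls and 20.3, 5.77 and 19.7 with RANKL (-1.73 ± 0.39, edgeR adjusted p = 0.000147). A deposited score of the 2 kb around each centre, a standardised natural log of the count, was tested in limma. Its group differences are in units of the score and are not log2 fold changes. With this 2-kb score the windows at Trim30a (-0.78, limma adjusted p = 0.1066), Pla2g4a (-1.13, adjusted p = 0.1375), Ncoa7 (-0.39, adjusted p = 0.3191) and Nfkb2 (0.66, adjusted p = 0.09747) were not called. The Nfkb2 window had 58.7, 77.6 and 76.4 CPM in controls and 146.0, 121.0 and 108.0 with RANKL (0.78 ± 0.19, edgeR adjusted p = 0.000935). Of these 7 starts, Nfkb2's had the most CpG dinucleotides in its 300 bases, 25, and Trim30a's had 0.

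The letters GGGANTTCC, a form of the NF-kB motif, were found in the Nfkb2 sequence on both strands at 1 place, beginning 39 bases before the start and outside the counted window. They occurred in 1.68% of the 32851 promoters of the table. CpG content also varied. The median was 7.0 CpG per 300 bases over all promoters, 20 over the 949 starts at deep windows, 25.0 over the 68 whose window was called higher, 9.0 over the 32 called lower and 21.0 over the 681 tested and not called. The GC box, GGGCGG on either strand, was in 73.5% of the starts called higher, 56.2% of those called lower, 66.4% of those tested and not called, 63.2% of all 949 and 35.7% of all promoters. CTTTGAT, a form of the TCF and LEF motif, was in 0 of the 68 higher and 4 of the 32 lower starts, in 2.2% of those not called and in 3.73% of all promoters. ATCAAT, a form of the ONECUT motif, was in 3 of the 68 and 4 of the 32, in 3.52% of those not called and in 7.54% of all promoters; the Pde1c, Trim30a and Pla2g4a sequences hold it. These matches are descriptions of the letters and no test was made of them.

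Deep windows were weakly covered. Those that could be tested were called about as often as windows outside genes at 1 to 50 kb. They were called more often than windows at gene ends (12.1% in either direction) and less often than those beyond 50 kb (38.3%). Of the 20734 members, 6852 (33.0%) had enough counts for the test, against 79.6% of the windows within 1 kb of a gene end, 32.7% of those outside genes at 1 to 50 kb and 21.0% beyond 50 kb. edgeR's quasi-likelihood test, fitted over all windows with p-values adjusted over all 21618 tested, called 666 deep windows higher and 828 lower with RANKL at an adjusted p of at most 0.05. That is 21.8% of the deep windows tested, where 20.1% of all tested windows were called in either direction. By direction, 9.72% of tested deep windows were higher against 10.0% of all windows, and 12.1% were lower against 10.0% of all windows. Windows outside genes at 1 to 50 kb were close to the deep ones, with 10.2% higher and 12.5% lower. At gene ends 9.22% were higher and 2.92% lower, and beyond 50 kb outside genes 13.5% were higher and 24.7% lower. All 3 RANKL values lay above or below all 3 control values in 34.9% of tested deep windows and in 33.4% of all tested windows. Deep windows called higher rose by a median of 3.01-fold and those called lower fell by a median of 2.47-fold. Over all called windows the medians were 2.45-fold and 2.39-fold. Higher windows rose by a median of 1.79-fold at gene ends, 3.61-fold outside genes at 1 to 50 kb and 5.31-fold beyond 50 kb. No control count was found in 13 of the higher deep windows, of 30 such windows in all. These had enough counts for the test only through the RANKL libraries. The filter asks for enough counts in 3 libraries, so any window low in 1 whole group could pass through the other group alone. Fold changes of such windows depend on that selection, and their number among the called windows was not counted.

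The balance of higher and lower calls among deep windows differed with coverage. In the least covered of 3 equal groups of tested members by mean log2 CPM, 353 of 2284 were higher and 172 lower. The best covered group held 168 higher and 349 lower. With no filter on low counts the split turned to 1173 higher and 770 lower. With the 2-kb score, tested in limma, it was 209 and 89. Without control replicate 3 it was 1010 and 862, without RANKL replicate 3 it was 394 and 577, and without control replicate 1 it was 562 and 551. DESeq2 on the same windows gave 448 and 406, so lower windows outnumbered higher ones in some settings and not in others. Of the 666 higher windows all had the same sign in the 2-kb score and 109 were called there. Of the 828 lower ones 824 had the same sign and 55 were called. The 2-kb score includes the reads of the 200-bp window.

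The share of all counts that fell in deep windows was 31.7%, 31.0% and 30.4% in controls and 29.4%, 30.3% and 30.4% with RANKL. The lowest control and the highest RANKL library met at 30.4%. The difference of -0.982 percentage points gave p = 0.2 in an exact two-sided permutation test, for which 3 against 3 libraries allow no p below 0.1. The median deep window had 12.9 ± 1.5 CPM (SD, n = 3) in controls and 13.8 ± 1.4 with RANKL. Median levels were higher at annotated starts, 37.8 ± 1.4 and 42.7 ± 1.8 CPM.

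Lower calls became more frequent with distance from the gene ends. Just outside the limit that defines deep windows, within 1 kb of a gene end, 2.92% of tested windows were lower, and just inside it, at 1 to 2 kb, 5.01% were. The share lower was 7.59% at 2 to 5 kb, 11.5% at 5 to 20 kb, 14.0% at 20 to 100 kb and 20.2% beyond 100 kb. The share higher moved less, from 8.64% at 1 to 2 kb to 12.9% beyond 100 kb. Only long genes hold windows far from their ends, and the same order was seen by host length, with 6.28% lower in hosts under 20 kb, 9.79% at 20 to 100 kb, 14.3% at 100 to 500 kb and 23.4% in hosts over 500 kb. Median coverage fell along the same axis, from 21.2 CPM at 1 to 2 kb to 8.86 CPM beyond 100 kb, and its part in these shares was not tested. Along the host from its start, the share lower was 9.49% in the first of 5 equal parts and 13.0% in the last.

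**Figure D1:**
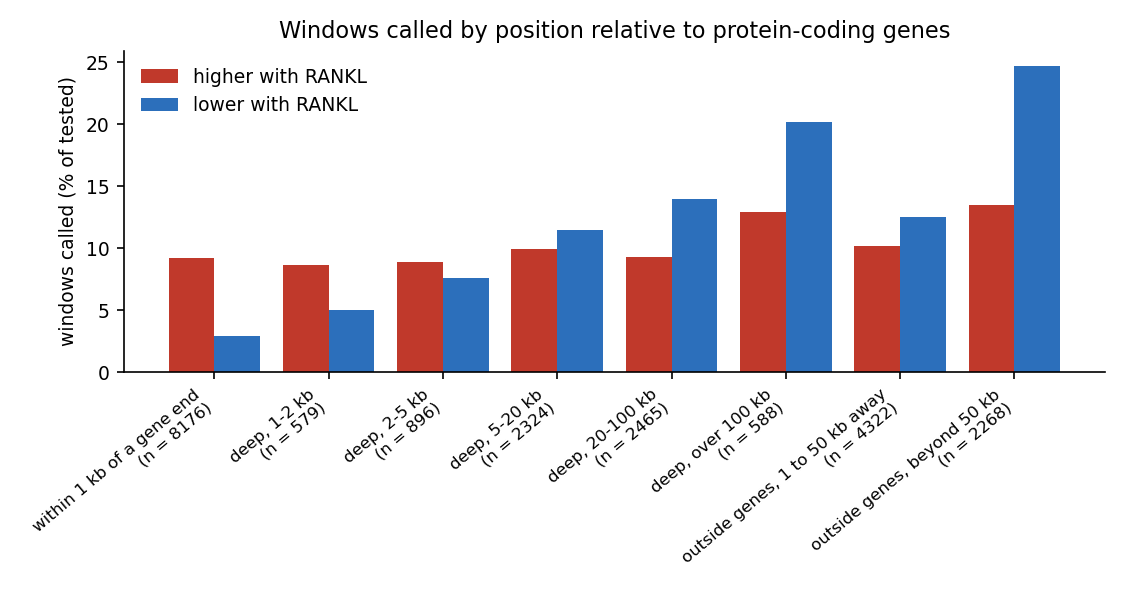
Percent of tested windows called higher (red) or lower (blue) with RANKL, by position relative to protein-coding genes, with the number tested under each pair of bars. The lower share climbs from 2.92% near gene ends to 20.2% for deep windows over 100 kb from an end, while the higher share stays between 8.64% and 12.9% within genes.

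Deep windows at annotated starts were less often called lower than the other members, a difference that was not tested. Of 781 tested, 68 (8.71%) were higher and 32 (4.1%) lower. Another 4670 were tested whose host had an entry but no annotated start within 250 bp. Of these 478 (10.2%) were higher and 599 (12.8%) lower. The profile of counts around the centre was also compared. At deep windows away from starts, or without an entry, the central 200 bp held 42.4%, 40.9% and 41.1% of the counts in the surrounding 2 kb in controls and 34.4%, 32.1% and 34.8% with RANKL. All RANKL libraries were below all controls there (exact two-sided permutation p = 0.1, the smallest possible). At deep windows on annotated starts the central share was 38.4%, 38.4% and 38.9% in controls and 38.9%, 36.9% and 37.5% with RANKL, and the groups overlapped (exact permutation p = 0.3). The difference between start windows and other members was -2.91 ± 0.95 points (SD, n = 3) in controls and 3.99 ± 1.1 with RANKL, with no overlap (exact permutation p = 0.1). Windows outside genes and beyond 50 kb had 40.5 ± 0.8% in controls and 32.1 ± 1.5% with RANKL, so the drop away from starts was not limited to gene bodies. A lower central share means fewer of the local reads in the counted window. It moved with the group at the windows away from starts, where most lower and also most higher calls were made. The share was pooled over all such windows, and its part in the calls was not tested.

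**Figure D2:**
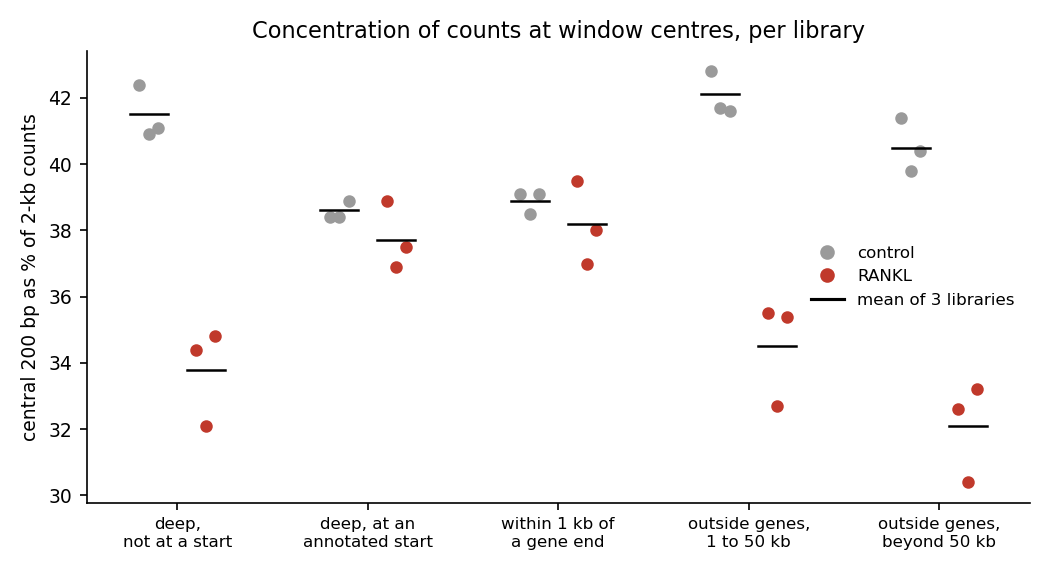
Central 200 bp as a percent of the counts in the surrounding 2 kb, per library (grey, control; red, RANKL; bar, mean of 3; the axis does not start at 0). RANKL libraries are at 32.1% to 34.8% for deep windows away from annotated starts, under all controls, and overlap the controls at annotated starts and gene ends.

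The single windows with the largest rises lay in genes of varied function. The rule took called windows at or above the median coverage of deep windows whose groups did not overlap. A window in Neurl1a, which encodes a ubiquitin ligase, had 5.73, 5.26 and 0.0 CPM in controls and 97.6, 51.9 and 88.5 with RANKL (chr19:47232599-47232798; log2 fold change 4.1 ± 0.44, edgeR adjusted p = 1.533e-17). One in Ttc6, a tetratricopeptide repeat gene, had 11.5, 2.63 and 0.0 CPM in controls and 102.0, 83.7 and 91.8 with RANKL (4.0 ± 0.4, edgeR adjusted p = 1.601e-20). A window in Cd200r2, of the CD200 receptor family, went from 4.3, 7.9 and 5.66 CPM to 81.4, 115.0 and 90.1 (3.93 ± 0.38, edgeR adjusted p = 3.558e-21). In these 3 windows no control exceeded 11.5 CPM and every RANKL library had at least 51.9. Windows in Mtap, for methylthioadenosine phosphorylase, and Nrxn3, for the synaptic adhesion protein neurexin 3, rose by 3.15 ± 0.4 and 3.0 ± 0.4 on the log2 scale. All of the windows named in this paragraph had enough counts for the test only through the RANKL libraries.

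The largest falls included Lgr5, which encodes the R-spondin receptor that marks crypt stem cells. Its window at chr10:115561220-115561419 had 48.7, 55.3 and 56.6 CPM in controls and 8.14, 14.4 and 3.28 with RANKL (-2.77 ± 0.46, edgeR adjusted p = 1.257e-07). A window in Col8a1, a collagen VIII chain, had 123.0, 108.0 and 124.0 CPM in controls and 8.14, 20.2 and 11.5 with RANKL (chr16:57686142-57686341; -3.12 ± 0.3, edgeR adjusted p = 1.972e-21). In Vapb, for a protein of endoplasmic reticulum contact sites, the values were 61.6, 65.8 and 73.6 CPM in controls and 0.0, 8.66 and 9.83 with RANKL (-3.11 ± 0.43). In each of these windows every RANKL library was far below every control. Windows in Cyria, a regulator of Rac1, and Cdh26, a cadherin, had log2 fold changes of -3.0 ± 0.44 and -2.74 ± 0.38. The Cyria call was lost with the 2-kb score (limma adjusted p = 0.1134).

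Some hosts had several called windows, and these did not always share a direction. Most hosts could not show several: of the 8151, 3945 had no tested deep window and 3974 held a single deep window. At least 2 tested windows were found in 1381 hosts, with each window given to 1 host. A called deep window was found in 1218 hosts, 2 or more in 208 and 3 or more in 55. Among the 55, 8 had only higher windows, 18 only lower ones and 29 both. Neighbouring called windows of a host had the same direction in 38 of 41 pairs up to 10 kb apart (92.7%), in 104 of 134 pairs at 10 to 50 kb (77.6%) and in 76 of 123 pairs over 50 kb apart (61.8%). With the experiment number as a block, hosts with 3 or more higher windows and none lower dropped from 8 to 5. Without RANKL replicate 3 they dropped to 1, without control replicate 2 to 4 and without control replicate 1 to 5; without RANKL replicate 1 there were 13 and without control replicate 3 there were 14. Hosts with 3 or more lower windows and none higher fell from 18 to 8 without control replicate 2 and to 10 without RANKL replicate 3 or without control replicate 1.

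Counts of all deep windows of a host were also summed and tested, which took in 5025 hosts. edgeR called 450 sums higher and 426 lower, 8.96% and 8.48% of the hosts tested, and 1528 had an unadjusted p under 0.05. Without control replicate 2 the higher sums were 260 and without RANKL replicate 3 they were 289; without control replicate 1 the lower sums were 277.

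Zbtb7c, which encodes a BTB zinc-finger regulator of transcription, had the most deep windows called higher with none lower, 4 of 4 tested of its 13. Its sum was 149.0, 86.8 and 99.0 CPM in controls and 321.0, 309.0 and 377.0 with RANKL (log2 fold change 1.59 ± 0.16, edgeR adjusted p = 4.128e-08). The windows were spread over the second part of the gene, and 3 of them were under 10 CPM in every control. In Il23r, the receptor subunit specific to interleukin 23, all 3 deep windows rose: the sum went from 45.8, 48.7 and 84.9 CPM to 142.0, 170.0 and 152.0 (1.47 ± 0.22, edgeR adjusted p = 2.754e-05). Tacc2, for a centrosomal coiled-coil protein, went from 98.8, 117.0 and 56.6 CPM to 240.0, 245.0 and 270.0 (1.4 ± 0.18), and 1 of its windows had 0.0, 3.95 and 0.0 CPM in controls and 40.7, 40.4 and 47.5 with RANKL. Every RANKL library was above every control in these hosts. Tmem266, a transmembrane protein gene, rose by 1.41 ± 0.2 on the log2 scale. Smaller rises of the sum were seen in Fam53b (0.85 ± 0.16), in Sh3pxd2a, for a podosome scaffold (0.52 ± 0.12), in Pdss2 of coenzyme Q synthesis (0.6 ± 0.15) and in Akap13, for an anchor of protein kinase A (0.5 ± 0.15). The calls of the last pair were lost without RANKL replicate 3 (Pdss2 0.49, adjusted p = 0.05928; Akap13 0.43, adjusted p = 0.1149) and without control replicate 2 (Pdss2 0.50, adjusted p = 0.06362; Akap13 0.40, adjusted p = 0.1438, all by edgeR).

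Adgrl3, which encodes the adhesion receptor latrophilin 3, had the most lower windows, 7 of 11 tested with none higher. Its 28 deep windows summed to 626.0, 676.0 and 656.0 CPM in controls and 273.0, 450.0 and 361.0 with RANKL (-0.83 ± 0.12, edgeR adjusted p = 1.213e-05). Sox5, for a transcription factor of the SoxD group, had 5 lower windows of 8 tested and a sum of 702.0, 608.0 and 685.0 CPM against 334.0, 410.0 and 426.0 (-0.74 ± 0.11, edgeR adjusted p = 1.856e-05). In Adgrl3 4 of the 7 lower windows followed each other between chr5:81427527-81427726 and chr5:81476068-81476267, and in Sox5 the lower windows at chr6:144042012-144042211 and chr6:144048553-144048752 were neighbours. The Adgrl3 lower windows at chr5:81610288-81610487 and chr5:81675094-81675293 also followed each other, with no deep window between them. The other lower windows of both genes were set apart by windows that were tested and not called. Lgr5 had the steepest fall of the 8: all 4 tested deep windows were lower, and the sum went from 301.0, 304.0 and 260.0 CPM to 81.4, 86.6 and 91.8 (-1.73 ± 0.16, edgeR adjusted p = 8.527e-09). The 4 Lgr5 windows had log2 fold changes from -1.18 ± 0.44 to -2.77 ± 0.46. The smallest of them, at chr10:115586515-115586714, was not called with the experiment block (-1.23, edgeR adjusted p = 0.06493) or without RANKL replicate 1 (-1.1), RANKL replicate 2 (-0.94) or control replicate 2 (-0.91). With the 2-kb score, tested in limma, only the window at chr10:115561220-115561419 kept its call. Sums also fell in Poc1b, for a centriole protein (-1.04 ± 0.15), Man2a1, for a Golgi mannosidase (-1.23 ± 0.19), and Trpc4, for a cation channel (-0.95 ± 0.18). The sums of Ptprn2, for a secretory granule protein, and Mtus1, for a microtubule-associated protein, fell by 0.74 ± 0.13 and 0.77 ± 0.14 on the log2 scale. In all 8 hosts every RANKL library was below every control.

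**Figure D3:**
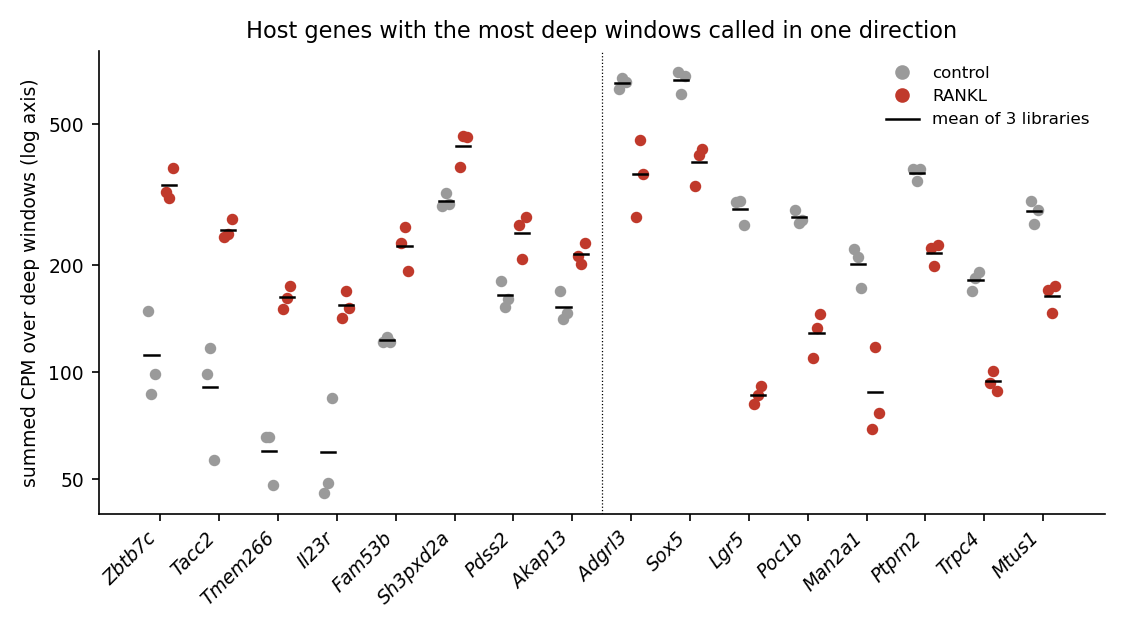
Summed CPM over the deep windows of the 8 hosts with the most windows called higher (left of the dotted line) and the 8 with the most called lower (right), on a log axis, with a point per library and a bar at the mean of 3. In each of the 16 hosts the 3 RANKL points lie on the same side of the 3 control points, and Lgr5 shows the widest gap among the lower ones.

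Other hosts held windows that moved in opposite directions. Vps13d, for a lipid transfer protein, had 2 higher and 5 lower windows of 12 tested and a sum of -0.36 ± 0.1 on the log2 scale (edgeR adjusted p = 0.01181). Its window at chr4:144945312-144945511 had 0.0, 1.32 and 2.83 CPM in controls and 20.3, 23.1 and 29.5 with RANKL, while the one at chr4:144999951-145000150 had 105.0, 112.0 and 122.0 in controls and 69.2, 49.1 and 70.5 with RANKL. Nav2, for a microtubule-binding protein, had 2 higher and 4 lower of 11. Its window at chr7:49473387-49473586 had 0.0, 1.32 and 0.0 CPM in controls and 36.6, 72.2 and 45.9 with RANKL, the clearest gain of the gene. The call of the Nav2 sum (-0.35 ± 0.11, edgeR adjusted p = 0.02415) was lost without RANKL replicate 1 (-0.25, adjusted p = 0.0957), without control replicate 1 (-0.35, adjusted p = 0.06504) and without control replicate 2 (-0.37, adjusted p = 0.07758). With loess offsets the Vps13d and Nav2 sums were not called (both -0.20, edgeR adjusted p = 0.1467 and 0.1987). Etv6, for an ETS family repressor, had 1 higher and 2 lower windows of 6, and its sum, 377.0, 334.0 and 345.0 CPM in controls against 391.0, 317.0 and 380.0, overlapped between groups (0.04 ± 0.12). Its higher window went from 14.3, 5.26 and 8.49 CPM to 40.7, 54.8 and 24.6 and its 2 lower ones fell by 1.96 ± 0.45 and 0.89 ± 0.21 on the log2 scale. None of the 3 was called with the 2-kb score (limma adjusted p = 0.0562, 0.1948 and 0.1721). The higher one was not called without RANKL replicate 2 (1.68, edgeR adjusted p = 0.05364).

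A test of whether the windows of a host changed by different amounts (edgeR's diffSpliceDGE, added after the files were seen) called 386 of the 1381 hosts with at least 2 tested windows, 28.0%, and 523 had an unadjusted p under 0.05. The smallest adjusted p belonged to Nrxn3 (1.284e-18), with 5 higher windows and 1 lower of 8, from -1.17 ± 0.32 to 3.65 ± 0.6 on the log2 scale. Nav2 (adjusted p = 9.836e-16), Ttc6 (8.07e-15) and Cdkal1, for a tRNA-modifying enzyme (2.214e-14), followed. The Cdkal1 call was lost without RANKL replicate 3 (adjusted p = 0.104). With all libraries thinned to 322173 counts the calls of Nav2 and Cdkal1 were lost (diffSpliceDGE adjusted p = 0.05566 and 0.5205). In Ttc6 the window near the end of the gene rose as given above, and a window in its first part fell by 1.55 ± 0.33. The call of the fall was lost with the 2-kb score (-0.82 in units of the score, limma adjusted p = 0.0795). Without RANKL replicate 3 the count was 236, without RANKL replicate 1 it was 600 and without control replicate 3 it was 673.

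Deep windows and the ends of the same gene did not always change together. For 2264 genes with counts in both, an interaction test in edgeR with the library as a block (added after the files were seen) called 174, or 7.69%, and 484 had an unadjusted p under 0.05. Deep windows moved above the ends in 80 and below them in 94. In 125 of the 174 the deep sum was called and the end sum was not, in 23 the reverse, and in 12 both were called in opposite directions. Without control replicate 2 the count was 93 and without RANKL replicate 3 it was 102.

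The genes named here had the smallest p in each direction among genes at or above the median coverage at both places, and were chosen after their values were seen. Pawr, for a pro-apoptotic protein, was the clearest of those that went both ways: its end window rose from 55.9, 56.6 and 62.2 CPM to 126.0, 98.1 and 115.0, and its 8 deep windows fell from 199.0, 232.0 and 226.0 to 110.0, 118.0 and 134.0. The difference, deep minus end, was -1.78 ± 0.29 on the log2 scale (edgeR adjusted p = 4.31e-06). In Bach1, for a haem-regulated repressor, the end window had 90.3, 97.4 and 96.2 CPM in controls and 151.0, 86.6 and 108.0 with RANKL, which overlap, while the deep sum fell from 112.0, 125.0 and 124.0 to 32.5, 66.4 and 36.1. The deep sums also fell against the ends in Car13, a carbonic anhydrase gene (-1.58 ± 0.33), and Wwox, for a WW domain oxidoreductase (-1.1 ± 0.24). Macc1, a regulator of MET, showed the opposite arrangement: its end window fell from 129.0, 111.0 and 119.0 CPM to 40.7, 46.2 and 72.1, and its deep sum was 60.2, 68.4 and 73.6 in controls and 77.3, 86.6 and 98.3 with RANKL, not called on its own (0.42 ± 0.24, edgeR adjusted p = 0.2297). Adck1 of mitochondria (1.54 ± 0.36), Pclo, for a presynaptic scaffold (1.53 ± 0.36), and Atg10 of autophagy (1.17 ± 0.29) had deep sums that rose against their ends. Adck1 was not called without RANKL replicate 1 (1.28, edgeR adjusted p = 0.05217), Atg10 without RANKL replicate 2 (1.0, adjusted p = 0.06193), and Pclo without RANKL replicate 3 (1.16, adjusted p = 0.1191) or control replicate 2 (1.22, adjusted p = 0.07576).

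**Figure D4:**
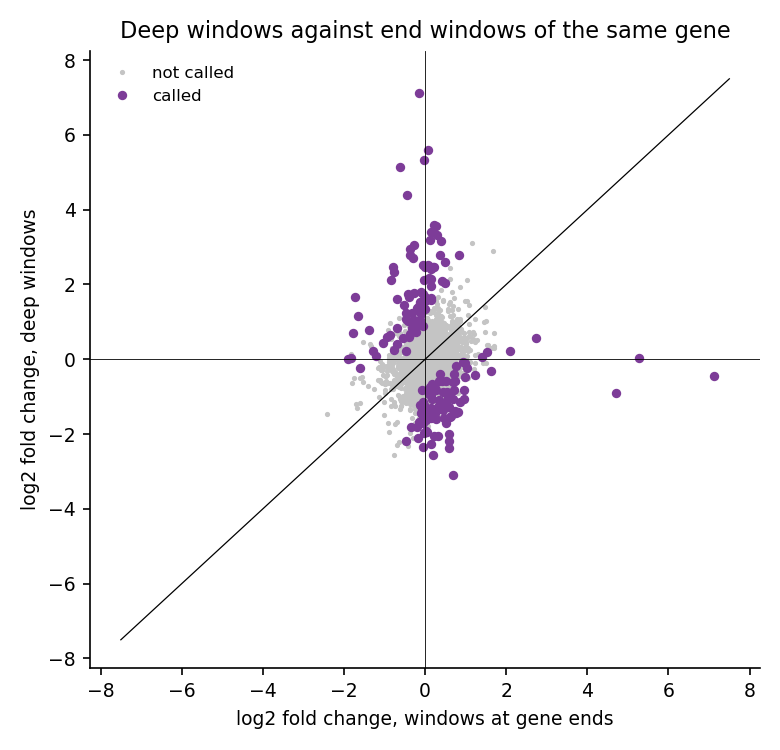
Log2 fold change of the summed deep windows (vertical) against that of the windows within 1 kb of the ends (horizontal) for 2264 genes, with the 174 called by the interaction test in purple and equal change on the diagonal. Most purple points lie along the vertical axis, with deep windows changed and end windows near 0.

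Gene lists were read through the sums of deep windows of their members, beside all 5025 hosts, of which 8.96% were higher and 8.48% lower with a median log2 fold change of -0.01. Among NF-kB and RANK signalling genes 15 of 28 had deep windows and 13 were tested: 3 rose, 0 fell and the median log2 fold change was 0.51. At an unadjusted p under 0.05 there were 6 higher and 1 lower, and DESeq2 called 2 and 0. Traf2, an adaptor of TNF receptors, went from 5.73, 21.1 and 14.1 CPM to 69.2, 46.2 and 59.0 (2.05 ± 0.42, edgeR adjusted p = 0.0008533). Nfkb2, for the p100 subunit, rose by 0.79 ± 0.22 (edgeR adjusted p = 0.01043), a call lost without control replicate 1 (0.64, adjusted p = 0.07533). Bcl3, for a nuclear partner of NF-kB, rose from 22.9, 23.7 and 31.1 CPM to 69.2, 37.5 and 57.4 (1.1 ± 0.35, edgeR adjusted p = 0.02799). The Bcl3 call was lost with the experiment block (1.04, adjusted p = 0.05184) and without RANKL replicate 1, RANKL replicate 3, control replicate 1 or control replicate 2 (0.94, 1.04, 1.00 and 1.02). Of the 15 windows tested in this list, 5 were higher and 0 lower, where 9.72% of all tested deep windows were higher and 12.1% lower. Traf2, Nfkb2 and Bcl3 had 1 tested window each, so their windows among the 5 repeat the rises of their sums. Also among the 5 are the single tested deep window of Tnfrsf11a, the RANK gene (51.6, 44.7 and 36.8 against 65.1, 89.5 and 75.4 CPM, 0.76 ± 0.25, edgeR adjusted p = 0.0181), and 1 of 2 in Relb, the partner of p52 (1.06 ± 0.41, edgeR adjusted p = 0.04807). The Tnfrsf11a window was not called without RANKL replicate 2 (0.65, adjusted p = 0.1151), RANKL replicate 3 (0.8, 0.06166), control replicate 2 (0.72, 0.07184) or control replicate 3 (0.67, 0.06054), and the Relb window with the experiment block (0.88, adjusted p = 0.1945) or without control replicate 3 (1.02, adjusted p = 0.09543). Neither was called in DESeq2 (adjusted p = 0.08466 and 0.1835) or with the 2-kb score (limma adjusted p = 0.1542 and 0.1203). The Relb window was also not called without the filter (edgeR adjusted p = 0.08073). The sums over all deep windows of Tnfrsf11a (0.49 ± 0.24), Relb (0.21 ± 0.26) and Nfkb1 (0.64 ± 0.24, edgeR adjusted p = 0.05686) did not pass.

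In the list of crypt stem cell and Wnt genes 18 hosts were tested, of which 5 fell and 0 rose, with a median of -0.25; at an unadjusted p under 0.05 there were 7 lower and 0 higher, and DESeq2 called 3 and 0. Besides Lgr5 these were Axin2, the feedback inhibitor of Wnt signalling (122.0, 105.0 and 102.0 against 40.7, 63.5 and 62.3 CPM, -0.94 ± 0.23), Nkd1, another Wnt inhibitor (22.9, 32.9 and 45.3 against 0.0, 2.89 and 11.5 CPM, -2.31 ± 0.62), Cd44 and Rgmb. Of the list's 35 tested windows 2 were higher and 6 lower, and of these 6, 4 lay in Lgr5 and 1 in Axin2. Of all tested deep windows 9.72% were higher and 12.1% lower. No deep window of Nkd1 had enough counts to be tested on its own. M cell markers and regulators had 7 tested hosts, with 2 that fell and 0 that rose (3 lower and 1 higher at an unadjusted p under 0.05, 1 and 0 in DESeq2). Serpinb1a, a serpin gene, went from 83.1, 50.0 and 93.4 CPM to 24.4, 23.1 and 29.5 (-1.46 ± 0.33, edgeR adjusted p = 0.001989). Esrrg, an orphan nuclear receptor gene, fell by 0.6 ± 0.18, a call lost without RANKL replicate 2 (-0.45, adjusted p = 0.106), control replicate 1 (-0.56, adjusted p = 0.05824) or control replicate 2 (-0.59, adjusted p = 0.06791). Of 19 tested enterocyte and digestion hosts 2 fell, among them the anion exchanger gene Slc26a3 (178.0, 179.0 and 198.0 against 97.6, 127.0 and 107.0 CPM, -0.73 ± 0.17), and 0 rose (3 lower and 0 higher at an unadjusted p under 0.05, 2 and 0 in DESeq2).

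Among intestinal transcription factors 28 hosts were tested, of which 1 rose (Zbtb7b) and 4 fell (Nfib, Nfia, Tead4 and Bach2). Nfib, a nuclear factor I gene, went from 173.0, 186.0 and 139.0 CPM to 85.4, 104.0 and 88.5 (-0.87 ± 0.18, edgeR adjusted p = 0.00103). Tead4 was not called without RANKL replicate 1 (-0.71), RANKL replicate 2 (-0.78) or control replicate 1 (-0.71), and Bach2 without RANKL replicate 1 (-0.55), RANKL replicate 2 (-0.55), control replicate 1 (-0.65) or control replicate 2 (-0.61). The sums of Hnf4a (-0.11 ± 0.15), Hnf4g (-0.11 ± 0.12) and Onecut2 (-0.28 ± 0.31) did not pass, and Sox9, Elf3 and Klf5 had no deep window. The adhesion and polarity list had 2 higher and 1 lower of 25, with a rise in the laminin gene Lama3 (0.8 ± 0.17) and a fall in the integrin gene Itga2 (-0.7 ± 0.16). Endocytosis and vesicle traffic had 1 higher and 2 lower of 20, and goblet and secretory genes 0 higher and 1 lower of 6 (1 and 1 at an unadjusted p under 0.05, 0 and 0 in DESeq2).

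Lists of other cell types had few deep windows to read. Of the tested hosts of the haematopoietic (2), mesenchymal (1) and endothelial (1) lists edgeR and DESeq2 called 0, and 2 had an unadjusted p under 0.05 in edgeR, Zap70 higher (1.16 ± 0.45) and Tek lower (-0.57 ± 0.28). Among 3 neural hosts Syt1, for a calcium sensor of exocytosis, rose from 162.0, 158.0 and 139.0 CPM to 334.0, 312.0 and 262.0 (0.94 ± 0.14, edgeR adjusted p = 2.852e-05). Snap25, for another part of the exocytosis machinery, fell by 1.8 ± 0.49, a call lost without control replicate 1 (-1.72, adjusted p = 0.06747) or control replicate 2 (-1.77, adjusted p = 0.07093). Of 3 epithelial hosts 1 rose, Cdh1 for E-cadherin (0.73 ± 0.26, edgeR adjusted p = 0.04677), and leaving out any library but RANKL replicate 3 lost that call (0.61 to 0.79). Krt8 and Cdx1 had values of 0.05 ± 0.29 and -0.18 ± 0.31.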

How the data were processed

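Members, lists and tests were chosen with earlier results of these data known. Raw counts for 55056 windows of 200 bp were deposited by the authors, along with a score for 2 kb around 55050 of those centres. From its values the deposited score is ln(count + 1), a natural log standardised per library, and rounding the counts it gives moved none by more than 0.00843. Tools named in the submitters' processing notes are MACS2 2.2.7, BWA 0.7.17, fastp 0.20.1, DESeq2 1.34.0 and Picard, with no role stated. How windows were chosen, and whether cut sites were shifted or duplicates removed, is not given in the sources used here.

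Counts were fitted with edgeR 4.0.16 in R 4.3.3 (TMM, filterByExpr, robust quasi-likelihood, Benjamini-Hochberg adjustment over all windows or all hosts, threshold 0.05). CPM use a library's counts in windows that passed the filter, times its TMM factor. SE is the absolute log2 fold change over the root of F. Totals of 322173 to 976881 counts limit precision. Hosts were named as the 8 with the most windows called in each direction only, the 4 with most in both, up to 3 per list by smallest adjusted p, and 12 genes of interest; genes named only in a list's count, and Cdkal1, fall outside this. Alternatives were DESeq2 1.42.0, loess offsets by limma 3.58.1, no filter, a 5-kb limit, thinning, each library left out and the experiment block. Another was the 2-kb score, tested by a linear model in limma without a filter on low counts. The labels give each library an experiment number, 1 to 3 in both groups, which was used as the block; deviations of same-numbered libraries did not move together, correlating at -0.0343, 0.0146 and -0.0131. Some items are not reported here.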

Additional observations from a re-analysis of the deposited data

How the results depend on the processing

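Totals of 322173 to 976881 counts leave most deep windows untested, so a window that was not called was not shown to be unchanged. With all libraries thinned to 322173 counts, 158 deep windows were called higher and 291 lower, 237 host sums higher and 252 lower, 0 hosts had 3 or more higher windows only and 6 had 3 or more lower only, 65 hosts had windows that moved apart and 45 genes had deep windows that moved differently from their ends. The 2-kb score, tested in limma, gave 209 higher and 89 lower windows and 2 and 0 such hosts. DESeq2 gave 406 lower windows and 3 and 6 such hosts. Without the filter there were 1173 higher windows and 20 hosts with 3 or more higher only. Loess offsets gave 4 of these hosts and the experiment block 5, and the block changed no other count by over 1.5 times (584 higher and 697 lower windows). The cause was not tested.

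With a library left out, higher windows numbered 394 to 1010 and lower ones 551 to 862, higher host sums 260 to 503 and lower ones 277 to 394, hosts with 3 or more higher only 1 to 14 and lower only 8 to 18, hosts moved apart 236 to 673 and genes with deep windows unlike their ends 93 to 161; the difference in the share of counts was -1.32 to -0.634 points. Of 725 values of named host sums under alternatives 623 kept direction and call, 72 lost the call, 11 gained it and 19 turned direction; of 313 values of named windows 281 kept both and 32 lost the call. Those that turned direction were not called. Relb was -0.28 over 5 kb from gene ends, Hnf4a 0.05 thinned, Hnf4g 0.01 with loess offsets and 0.05 thinned, Etv6 -0.03 thinned, and with the block Pdgfra was -0.07 and Krt8 -0.04. With a library left out the sums ranged from -0.20 to 0.12 in Spi1, -0.17 to 0.55 in Pdgfra, -0.86 to 0.02 in Ret, -0.14 to 0.22 in Krt8, -0.18 to 0.42 in Relb, -0.22 to 0.001 in Hnf4g and -0.02 to 0.12 in Etv6.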
